A study of Saccharomyces cerevisiae with 12 samples.

Results

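The small nucleolar RNAs (snoRNAs), spliceosomal RNAs and other stable noncoding RNAs of the yeast nucleus were examined in poly(A)-selected sequencing libraries of total and polysomal mRNA. Members were all gene IDs beginning with snR together with LSR1, TLC1, SCR1, RPR1 and NME1, which gave 86 of the 7126 IDs in the count tables. They comprised 47 box C/D snoRNAs, 29 box H/ACA snoRNAs, 6 entries for spliceosomal RNAs, the RNA subunits of RNase P and RNase MRP (RPR1 and NME1), the RNA of the signal recognition particle (SCR1) and the telomerase RNA (TLC1). None of these RNAs is translated.

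All 12 libraries came from Saccharomyces cerevisiae MATa cells that lack the chromosomal rDNA (rdn1ΔΔ::HIS3) and carry all their rRNA genes on a URA3 plasmid with a tetracycline-regulated promoter before the rRNA operon and a hygromycin resistance mutation in the small subunit rRNA. The plasmid was either wildtype or ΔES27Lb, in which the b arm of expansion segment 27 of the large subunit rRNA is deleted. Cells grew in YPD at 30 °C to an OD600 of 0.8, and each of 3 cultures per strain gave a total mRNA library from the lysate and a polysomal mRNA library from pooled polysome fractions of a sucrose gradient run after cycloheximide treatment. Every RNA sample was enriched with oligo-dT beads, so each value below is the level of the copies that the beads retained and not the cellular abundance of the RNA. The marker genes of mating type a were between 10.5 and 377 CPM (counts per 1000000 counts, with library sizes scaled by TMM factors) in all 12 libraries, and those of mating type alpha were at 5.29 CPM or below. The labels do not say whether the cultures were started from separate transformants, so p-values measure the spread between these cultures.

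Box C/D snoRNAs pair with rRNA and direct 2′-O-methylation of ribose by Nop1, whereas box H/ACA snoRNAs direct pseudouridylation by Cbf5. A few members of each class, including U3 (snR17a and snR17b), U14 (snR128), snR30 and snR10, are needed for cleavage of the rRNA precursor. In yeast most snoRNAs are transcribed from their own promoters, several are cut from polycistronic precursors, and a small group is released from introns of protein-coding genes after splicing. Mature forms of these RNAs mostly lack a poly(A) tail, while some precursors and decay intermediates carry one, and the RNAs act in the nucleus and nucleolus except for SCR1, which works at the ribosome in the cytoplasm.

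The ends of the 6 intron-encoded box C/D snoRNAs are shown first because 5 of them had the smallest unadjusted p-values of all members in the strain comparison in total mRNA, a group singled out after its values were seen and in which no member passed the adjusted threshold. The host genes are EFB1 for snR18 (U18), ASC1 for snR24 (U24), TEF4 for snR38, RPL7A for snR39, IMD4 for snR54 and RPL7B for snR59. The sequences are from RefSeq for S288C (R64), whereas the counts had been made on the BY4742 genome. Capitals mark the box C motif (ATGATG) near the 5′ end and the box D motif (CTGA) near the 3′ end, between which the guide stretches lie.
snR18 (bases 1 to 30, chrI:142367-142396, plus strand): gtgaATGATGaatttaattctttggtccgt
snR18 (bases 73 to 102, chrI:142439-142468, plus strand): agatgtggttgactatcacagtatCTGAcg
snR24 (bases 1 to 30, chrXIII:500043-500072, minus strand): tcaaATGATGtaataacatatttgctactt
snR24 (bases 60 to 89, chrXIII:499984-500013, minus strand): ataccaattatcaccaagatctCTGAtgaa
snR38 (bases 1 to 30, chrXI:283185-283214, plus strand): cataATGATGaaaaaaaattttatcaaaca
snR38 (bases 66 to 95, chrXI:283250-283279, plus strand): tctcatatgttgatatttgtatttCTGAta
snR39 (bases 1 to 30, chrVII:365222-365251, minus strand): ttttATGATGaaaatccattgtatcccaat
snR39 (bases 60 to 89, chrVII:365163-365192, minus strand): tcgtaacttatcaccatctttcgaCTGAtt
snR54 (bases 1 to 30, chrXIII:163591-163620, minus strand): taagATGATGatcaactttttatatcaata
snR54 (bases 57 to 86, chrXIII:163535-163564, minus strand): acgatcttgtagagaacttttactCTGAat
snR59 (bases 1 to 30, chrXVI:173827-173856, plus strand): cttaATGATGaaaactattccttattctcg
snR59 (bases 49 to 78, chrXVI:173875-173904, plus strand): tgtcgtttaatcaccatctttcggCTGAct

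Searched on the RNA strand only, ATGATG within the first 15 bases together with CTGA within the last 15 bases was found in 31 of the 47 box C/D members (66.0%), in 0 of the 29 box H/ACA members and in 0 of the other 10. Windows of 100 bases over both strands of R64 held the same pair in 0.0226% of cases, and the motifs do not overlap each other. snR39 and snR59 lie in introns of paralogous ribosomal protein genes and guide the same methylation of the large subunit rRNA. They were identical at 74.2% of 89 aligned positions.

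Longer members carry well known functional stretches. LSR1 is the U2 RNA, whose GTAGTA (capitals) pairs with the branch site of introns. snR19 is the U1 RNA, whose 5′ end (ACTTACCT in capitals) pairs with the 5′ splice site. TLC1 holds the template copied by telomerase (capitals). snR33, a box H/ACA guide for the large subunit rRNA and the member with the highest mean level per length in total mRNA, carries ACA before its last 3 bases (capitals).
LSR1 (bases 22 to 51, chrII:681812-681841, minus strand): cttagatcaagtGTAGTAtctgttcttttc
snR19 (bases 1 to 30, chrXIV:230643-230672, minus strand): atACTTACCTtaagatatcagaggagatca
TLC1 (bases 461 to 490, chrII:308047-308076, plus strand): ctaccatCACCACACCCACACACaaatgtt
snR33 (bases 154 to 183, chrIII:142364-142393, minus strand): tggaattgatatagaagtgtgtggACAatc

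In 30-base windows over both strands of R64, GTAGTA was present in 0.633%, ACTTACCT in 0.0274% and the telomerase template in 0.00469%. ACANNN closed 14 of the 29 box H/ACA members as annotated (48.3%), 3 of the 47 box C/D members and 1.72% of 100-base windows.

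Libraries held between 15050764 and 21532842 counts. The 86 RNAs together received 5899 to 9449 counts per library in total mRNA, a share of 0.0353% to 0.0609%, and 1426 to 1834 counts in polysomal mRNA, a share of 0.00853% to 0.0108%. No polysomal library reached the share of any total library. A floor of 3 counts corresponded to 0.139 to 0.199 CPM of the library totals. Intervals and floors of this kind cover counting error only. snR7-L and snR7-S, the long and short forms of U5, and snR73, a box C/D guide, were at 0 in all 12 libraries. The annotated interval of the short U5 form lies within that of the long form, and how the counting treated reads of overlapping features is not given in the sources used here. A further 24 members had counts but failed the filter on low counts (at most 101 counts summed over the 12 libraries and at most 0.829 CPM on average in total mRNA). A member could pass the filter through the total libraries alone, where these RNAs were higher, so counts over the 59 members tested describe those members only.

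The summed level of the 86 RNAs was higher in total than in polysomal mRNA in each of the 6 cultures. In wildtype it was 527, 399.5 and 278 CPM in total mRNA and 112, 105 and 105 CPM in polysomal mRNA. In ΔES27Lb it was 379, 308 and 439 CPM in total mRNA and 97.1, 105 and 131 CPM in polysomal mRNA. Total over polysomal ratios within a culture were 4.72, 3.82 and 2.64 in wildtype, 3.73 ± 1.04 (SD, n = 3), and 3.91, 2.93 and 3.35 in ΔES27Lb, 3.40 ± 0.489 (SD, n = 3). The ranges of these ratios overlapped between the strains. In such bulk libraries fewer cells with an RNA and less RNA per cell cannot be told apart. Without TMM scaling the mean ratios were 4.93 and 4.14.

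**Figure D1:**
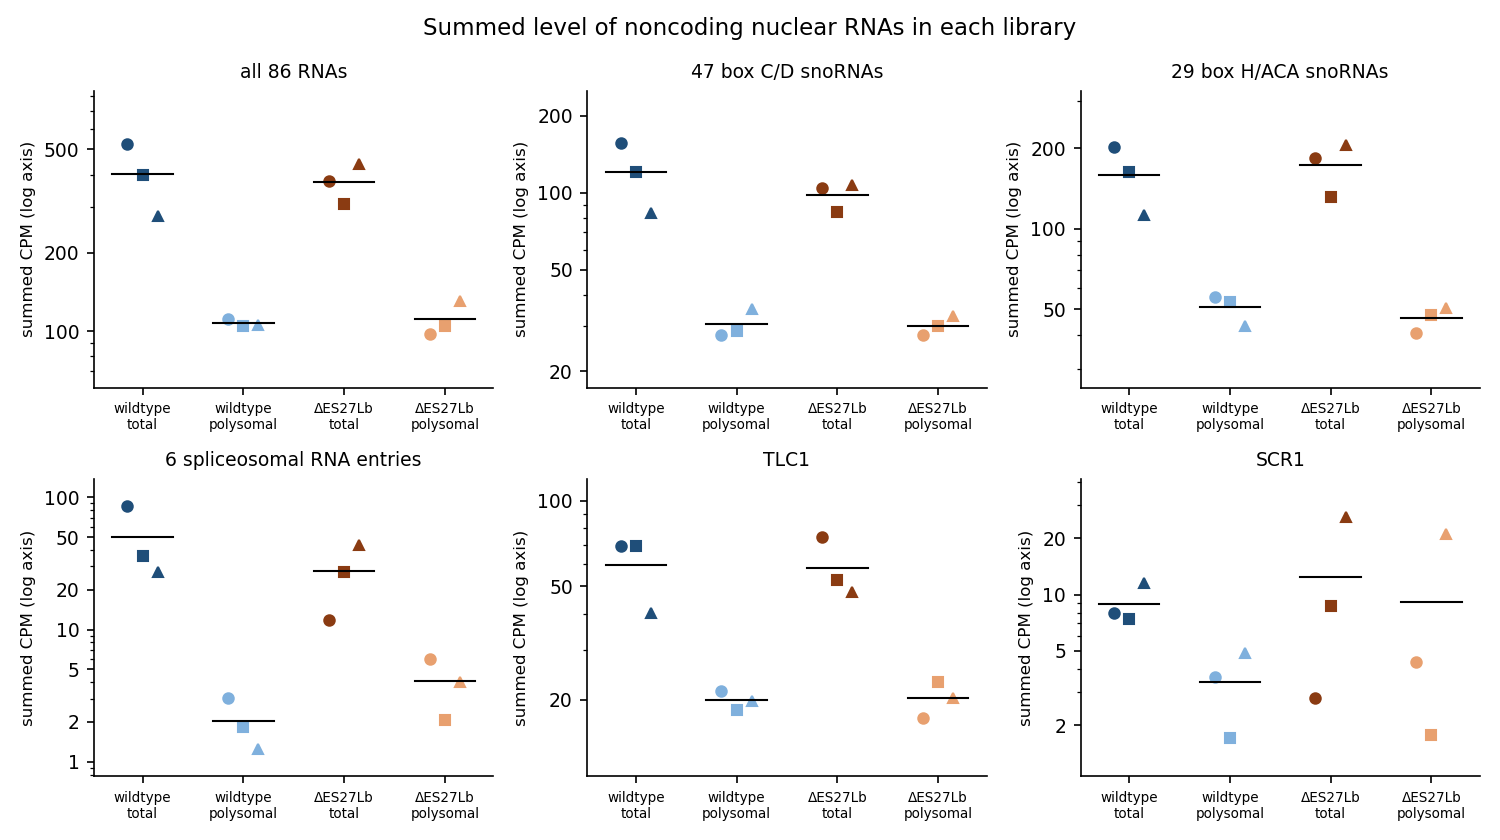
Summed CPM (TMM-scaled, log axis) of the RNAs of each class in each of the 12 libraries. Circles, squares and triangles are cultures 1, 2 and 3, and black bars are means of 3 libraries. For all 86 RNAs the 6 total libraries lie between 278 and 527 CPM and the 6 polysomal libraries between 97.1 and 131 CPM, whereas the SCR1 libraries of the 2 pools overlap in ΔES27Lb.

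A small number of members made up much of the signal. TLC1, LSR1, snR33, snR86 and snR4 were the 5 highest on average in total mRNA and took 37.6% to 52.0% of the members' counts in each library. TLC1 and LSR1 are 1301 and 1175 bases long in R64 and snR86, a box H/ACA guide for the large subunit rRNA, is 1004, against a median of 162.5 bases for all members. Per kilobase snR33 (171 CPM per kb) and snR4 (138) were the highest in total mRNA over both strains, and first and second in each. snR39, snR31 and snR44 followed at 76.6, 76.2 and 72.6 CPM per kb, TLC1 was at 45.2 and LSR1 at 28.7. The order of those 3 differed between strains, with snR39 at 98.5, snR44 at 91.7 and snR31 at 58.2 CPM per kb in wildtype and at 54.7, 53.5 and 94.2 in ΔES27Lb.

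The first comparison asked how each RNA was divided between the pools in wildtype, as the log2 ratio of polysomal to total level (log2 P/T). The members were lower in polysomal mRNA: the median log2 P/T of the 59 tested was -1.96, beside -0.06 for all 6003 genes tested. Medians by culture were -2.37, -1.69 and -1.35. Of the 59, 58 were below 0, and snR85, a predicted guide for pseudouridylation of the small subunit rRNA, was the exception at 0.52 ± 0.69 (SE). The lowest wildtype total value of snR85 lay below the floor of 3 counts. Adjusted over all genes (Benjamini-Hochberg, edgeR quasi-likelihood test, threshold 0.05), 3 members fell (LSR1, snR86 and TLC1) and 0 rose, beside 7 genes in all, which is 0.117% of those tested. At an unadjusted p of 0.05 or less 49 members were lower and 0 higher, beside 15.6% of genes that were lower, and DESeq2 called 43 of 83 members lower, beside 5.52% of 6917 genes. The total and polysomal libraries of a culture deviated together, and with the culture as a block 45 members fell and 0 rose, beside 937 genes that fell (15.6%).

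LSR1, the U2 RNA of the spliceosome, had the largest difference of the 3 called. It was at 67.4, 33.7 and 25.6 CPM in wildtype total mRNA and at 1.83, 1.09 and 0.87 CPM in polysomal mRNA. The pools did not overlap. Log2 P/T was -5.05 ± 0.61 (SE), or 33.2-fold lower in polysomes, with adjusted p = 0.0127 by edgeR and 0.00426 with the block. In ΔES27Lb it was at 10.2, 25.4 and 40.3 CPM in total mRNA and at 4.02, 1.47 and 2.59 CPM in polysomal mRNA. There log2 P/T was -3.21 ± 0.56 (SE), with adjusted p = 0.0653 by edgeR and 0.033 with the block.

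TLC1, the RNA template subunit of telomerase, was at 69.1, 69.0 and 40.4 CPM in wildtype total mRNA and at 21.5, 18.5 and 19.8 CPM in polysomal mRNA. The pools were separate, at a smaller distance than those of LSR1. The fitted log2 P/T was -1.58 ± 0.25 (SE), with adjusted p = 0.0387 by edgeR and 0.0116 with the block. The levels in ΔES27Lb were 74.4, 52.6 and 47.6 CPM in total and 17.3, 23.2 and 20.3 CPM in polysomal mRNA. The P/T ratio on the log2 scale was -1.53 ± 0.25 (SE), with adjusted p = 0.0653 by edgeR and 0.033 with the block.

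snR86 was at 45.4, 28.7 and 16.03 CPM in wildtype total mRNA and at 5.89, 6.56 and 5.30 CPM in polysomal mRNA, again without overlap. Log2 P/T was -2.34 ± 0.36 (SE), with adjusted p = 0.0349 by edgeR and 0.0107 with the block. ΔES27Lb cells had 33.4, 17.9 and 22.7 CPM in total and 7.52, 5.97 and 6.99 CPM in polysomal mRNA. The fitted log2 P/T was -1.85 ± 0.35 (SE), with adjusted p = 0.101 by edgeR and 0.033 with the block.

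When no block was fitted, leaving out 1 culture could change the wildtype calls. Without culture 1 or culture 2 of wildtype, or without culture 3 of ΔES27Lb, 0 members and 0 genes passed the adjusted threshold. Without culture 1 or 2 of ΔES27Lb, LSR1 was the only member that passed, beside 5 of 6033 and 2 of 6062 genes. With the block, between 27 and 50 members fell in wildtype whichever culture was left out, and LSR1, TLC1 and snR86 were among them each time. Over all genes those fits called from 872 of 6066 (with 27 members) to 1971 of 6062 (with 50 members), in either direction.

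In ΔES27Lb the median log2 P/T of the 59 members was -1.88, beside -0.06 for all genes, and medians by culture were -1.84, -1.82 and -1.69. All 59 were below 0, from -3.21 for LSR1 to -0.45 for SCR1. By edgeR without a block 0 genes and 0 members passed the adjusted threshold (percent called 0.0), and 44 members were at an unadjusted p of 0.05 or less, all lower, beside 10.2% of all genes. The smallest adjusted p was 0.0653. DESeq2 called 21 members lower of 83 tested, beside 59 of 6917 genes (0.853%). With the culture as a block in edgeR 29 members fell and 0 rose, beside 245 genes that fell (4.08%). That count rested on single cultures: it was 40 without culture 1 of wildtype, 8 without culture 2 or culture 3 of wildtype, 1 (LSR1) without culture 1 of ΔES27Lb and 0 without culture 2 or culture 3 of ΔES27Lb. All genes called in either direction moved too, from 418 of 6003 with every culture. In the same order they were 1706 of 6066, 22 of 6055, 15 of 6042, 2 of 6033, 0 and 0. Of the 45 and 29 members called with the block, 24 were shared, which is 53.3% of the wildtype list and 82.8% of the ΔES27Lb list.

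**Figure D2:**
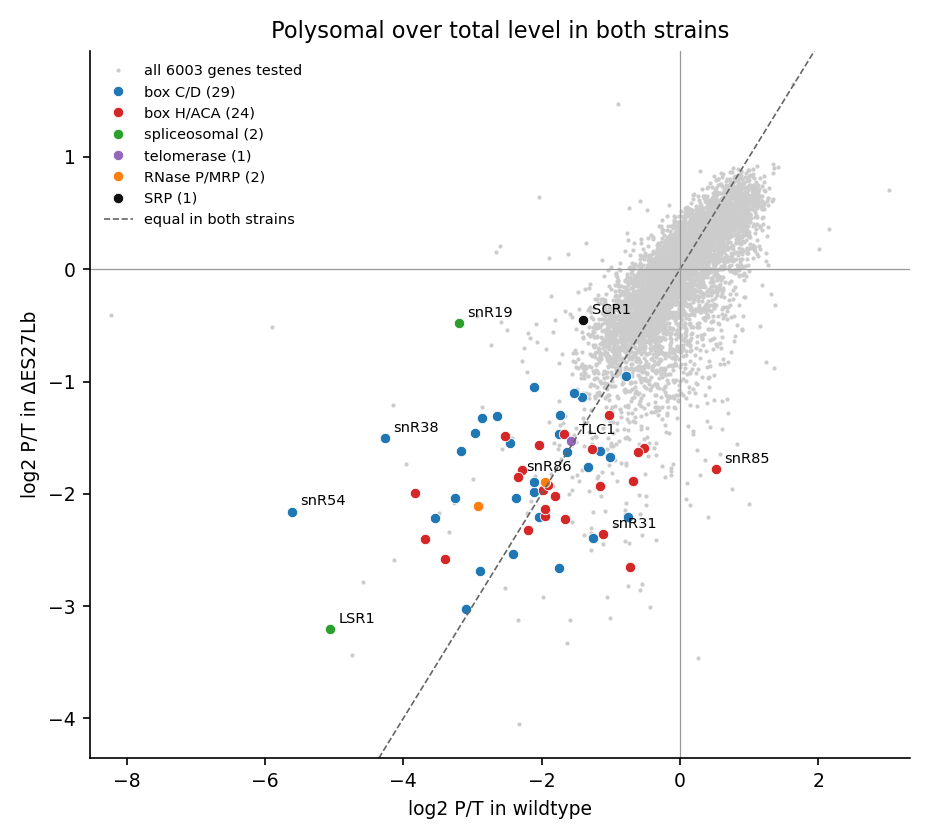
Log2 P/T in wildtype (x axis) against log2 P/T in ΔES27Lb (y axis) for the 59 members tested, coloured by class, over all 6003 genes tested in grey. All 59 lie below 0 on the y axis and 58 lie below 0 on the x axis, snR85 being the exception, and the medians are -1.96 and -1.88.

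The overlap of the libraries was also counted, which includes members outside the fit. Of the 83 members with a count, every polysomal library was below every total library for 57 in wildtype, beside 16.0% of all genes with a count, and for 52 in ΔES27Lb, beside 12.8%. For 0 members were all polysomal libraries above all total libraries. Among the 24 members that failed the filter, 9 were separate in this direction in wildtype and 7 in ΔES27Lb.

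Each class was lower in polysomal mRNA. The 29 box C/D snoRNAs tested had a median log2 P/T of -2.11 in wildtype and -1.67 in ΔES27Lb, and 23 and 9 of them fell with the block, beside 15.6% and 4.08% of all genes. For the 24 box H/ACA snoRNAs the medians were -1.85 and -1.93, and 17 and 18 fell with the block. In ΔES27Lb the 29 calls over all members came to 0 or 1 when any ΔES27Lb culture was left out. The difference between the classes was not tested. Members with their own transcription unit (40 tested) had medians of -1.95 and -1.89, and those of polycistronic precursors (9 tested) had -1.64 and -1.76. Guides for the large subunit rRNA alone (31 tested) had medians of -2.03 and -1.93, and guides for the small subunit rRNA alone (12 tested) had medians of -1.37 and -1.63.

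Among the highly detected guides, snR33 was at 21.1, 29.4 and 22.4 CPM in wildtype total mRNA and at 13.5, 9.91 and 9.28 CPM in polysomal mRNA. In ΔES27Lb it was at 37.0, 26.1 and 51.5 CPM in total and at 9.32, 12.2 and 8.50 CPM in polysomal mRNA. The pools were separate in both strains. The P/T ratio on the log2 scale was -1.16 ± 0.28 (SE) in wildtype and -1.93 ± 0.28 (SE) in ΔES27Lb, with adjusted p = 0.0979 and 0.0653 by edgeR and 0.0153 and 0.033 with the block.

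snR4 guides acetylation of the small subunit rRNA by Kre33 and is a box C/D RNA. It was at 18.3, 24.0 and 26.6 CPM in wildtype total mRNA and at 9.16, 8.68 and 13.02 CPM in polysomal mRNA. The levels in ΔES27Lb were 28.8, 25.5 and 30.9 CPM in total and 5.03, 11.9 and 10.9 CPM in polysomal mRNA. Its pools were separate in both strains, at log2 P/T of -1.16 ± 0.31 (SE) and -1.62 ± 0.31 (SE), with adjusted p = 0.0131 and 0.033 by edgeR with the block (0.0979 and 0.101 without it). snR31, a box H/ACA guide for the small subunit rRNA, was at 10.4, 15.3 and 13.6 CPM in wildtype total mRNA and at 7.33, 6.29 and 4.61 CPM in polysomal mRNA. In ΔES27Lb its levels were 20.3, 12.9 and 30.3 CPM in total and 3.44, 5.82 and 3.10 CPM in polysomal mRNA. The pools were separate in both strains. The fitted log2 P/T was -1.11 ± 0.35 (SE) and -2.36 ± 0.37 (SE), with adjusted p = 0.0381 and 0.0377 by edgeR with the block (0.103 and 0.0653 without it).

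Of the snoRNAs needed for cleavage of the rRNA precursor, snR30 was the highest. It was at 14.2, 8.38 and 7.55 CPM in wildtype total mRNA and at 2.88, 2.32 and 2.43 CPM in polysomal mRNA, and at 9.12, 8.66 and 14.3 CPM and 1.38, 3.32 and 3.53 CPM in the same pools of ΔES27Lb. The fitted log2 P/T was -1.97 ± 0.40 (SE) in both strains, and the adjusted p was 0.0116 in wildtype and 0.033 in ΔES27Lb by edgeR with the block (0.0629 and 0.134 without it). The main U3 gene, snR17a, was at 10.5, 5.22 and 4.91 CPM in wildtype total mRNA against 2.16, 0.61 and 0.93 CPM in polysomal mRNA. ΔES27Lb cells had 3.78, 3.57 and 10.8 CPM against 3.18, 0.96 and 1.95 CPM. The pools were separate in both strains. The second U3 gene, snR17b, was at 6.02, 0.72 and 0.51 CPM in wildtype total mRNA and at 0.33, 0.20 and 0.25 CPM in polysomal mRNA, and at 1.14, 0.46 and 1.71 CPM and 0.32, 0.29 and 0.43 CPM in ΔES27Lb. It was below snR17a in every library, and its pools were separate in both strains, by a narrow margin in ΔES27Lb (adjusted p = 0.112 by edgeR with the block). The U3 genes are identical at 81.3% of 491 aligned positions in R64, so reads could have been split between them. snR17a also overlaps the annotated gene IRC13 on the same strand. U14 (snR128) was at 1.67, 1.86 and 1.16 CPM in wildtype total mRNA and at 0.59, 0.34 and 0.44 CPM in polysomal mRNA, and at 1.69, 1.25 and 5.43 CPM and 0.16, 0.37 and 0.79 CPM in ΔES27Lb, and it fell in both strains with the block (adjusted p = 0.0193 and 0.0417, edgeR). snR190, cut from the same precursor as U14, was at 6.08, 0.72 and 0.65 CPM in wildtype total mRNA and at 0.39, 0.48 and 0.06 CPM in polysomal mRNA. In ΔES27Lb it was at 0.46, 0.93 and 0.45 CPM and at 0.11, 0 and 0.58 CPM, and the pools overlapped there. snR10 did not exceed 0.45 CPM in any library. It overlaps the annotated gene YGL088W on the same strand.

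**Figure D3:**
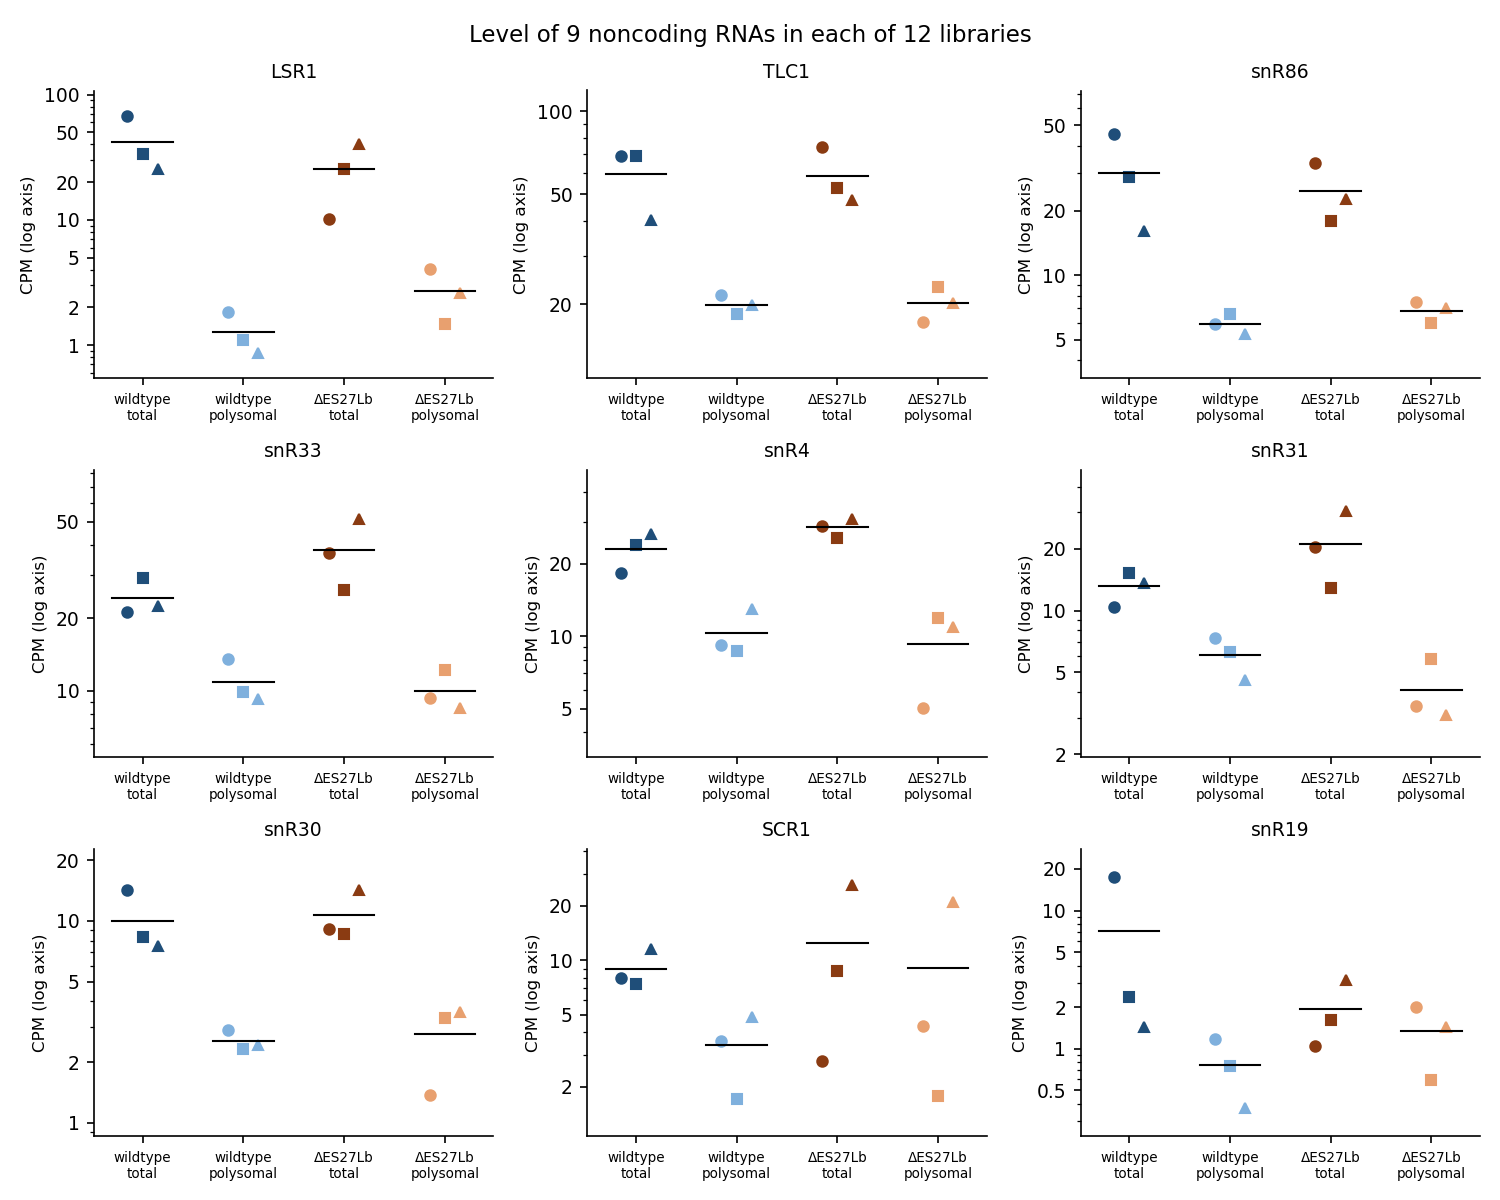
CPM (TMM-scaled, log axis) of 9 members in the 12 libraries, with circles, squares and triangles for cultures 1, 2 and 3 and black bars for means. The LSR1 pools are separate in both strains, and SCR1 and snR19 show overlapping pools in ΔES27Lb.

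The remaining spliceosomal RNAs were low. U1 (snR19) was at 17.6, 2.38 and 1.44 CPM in wildtype total mRNA and at 1.18, 0.75 and 0.37 CPM in polysomal mRNA. The levels in ΔES27Lb were 1.05, 1.62 and 3.12 CPM in total and 2.01, 0.59 and 1.44 CPM in polysomal mRNA, where the pools overlapped. The P/T ratio on the log2 scale was -3.20 ± 0.91 (SE) in wildtype and -0.48 ± 0.86 (SE) in ΔES27Lb, with adjusted p = 0.0985 and 0.788 by edgeR. With the block it was -2.68 ± 0.60 (SE) and -0.47 ± 0.55 (SE), with adjusted p = 0.0132 and 0.569 by edgeR. The wildtype value rested on culture 1, without which it was -1.71 ± 0.73 (SE). U4 (snR14) was at 0.89, 0.10 and 0.07 CPM in wildtype total mRNA and at 0.41, 0.14 and 0.07 CPM in ΔES27Lb total mRNA, and at 0 in all 6 polysomal libraries. U6 (snR6), a transcript of RNA polymerase III, was at or below 0.17 CPM in every library.

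SCR1, the one member that acts on cytoplasmic ribosomes, had overlapping pools in ΔES27Lb. It was at 7.97, 7.39 and 11.5 CPM in wildtype total mRNA and at 3.60, 1.71 and 4.86 CPM in polysomal mRNA. ΔES27Lb cells had 2.78, 8.71 and 26.0 CPM in total and 4.34, 1.77 and 21.1 CPM in polysomal mRNA. The pools were separate in wildtype and overlapped in ΔES27Lb, where culture 1 was higher in polysomes. Log2 P/T was -1.40 ± 0.85 (SE) in wildtype and -0.45 ± 0.83 (SE) in ΔES27Lb, with adjusted p = 0.296 and 0.790 by edgeR. With the block it was -1.46 ± 0.44 (SE) and -0.57 ± 0.45 (SE), with adjusted p = 0.0309 and 0.379 by edgeR. The RNase P RNA RPR1, which processes tRNA precursors, was at 2.62, 1.86 and 2.60 CPM in wildtype total mRNA and at 0, 0.55 and 0.37 CPM in polysomal mRNA. In ΔES27Lb it was at 0.64, 2.41 and 6.92 CPM and at 0.53, 0.59 and 1.15 CPM. The pools were separate in wildtype and overlapped in ΔES27Lb. It fell in wildtype with the block (log2 -2.97 ± 0.71 SE, adjusted p = 0.0151, edgeR). The RNase MRP RNA NME1, which cuts the rRNA precursor, was at 1.23, 0.52 and 0.83 CPM in wildtype total mRNA and at 0.07, 0.14 and 0.44 CPM in polysomal mRNA, and at 1.73, 0.97 and 2.16 CPM and 0.48, 0 and 0.79 CPM in ΔES27Lb. Its log2 P/T of -1.95 ± 0.86 (SE) and -1.90 ± 0.78 (SE) did not pass in either strain (adjusted p = 0.0672 and 0.0704 by edgeR with the block).

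The next comparison asked whether the P/T ratio of a member differed between ΔES27Lb and wildtype (the interaction of strain and pool). It passed the adjusted threshold for 0 of 59 members and 0 of 6003 genes by edgeR (percent called 0.0), for 0 members with the block and for 0 members by DESeq2, which called 0.0145% of genes. The median difference in log2 P/T, ΔES27Lb minus wildtype, was 0.12 beside 0.00 for all genes, with an SD of 0.53 between cultures, and it was -0.09 without culture 1 of wildtype. At an unadjusted p of 0.05 or less there were 4 members, beside 0.766% of genes. snR31 had -1.25 (95% interval -2.33 to -0.18) and snR85 had -2.30 (-4.38 to -0.22), whereas LSR1 had 1.85 (0.18 to 3.51) and snR19 had 2.72 (0.05 to 5.40). Without culture 1 of wildtype, or without culture 1 of ΔES27Lb, 0 members were at that level. There were 3 and 7 without culture 2 or 3 of wildtype, and 5 and 2 without culture 2 or 3 of ΔES27Lb. The counts over all genes (6033 to 6066 tested) moved too. They were 12, 69 and 146 without wildtype cultures 1 to 3, and 22, 117 and 37 without ΔES27Lb cultures 1 to 3. For 35 of the 59 members the 95% interval spanned a 2-fold difference in both directions, so equal ratios were not shown.

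The strains were then compared within each pool. In total mRNA 0 members and 0 genes passed the adjusted threshold by edgeR, with or without the block (percent called 0.0), and DESeq2 called 0 members and 0.0578% of genes. The median log2 difference, ΔES27Lb minus wildtype, was -0.07 for the members and 0.00 for all genes. At an unadjusted p of 0.05 or less there were 10 members, 6 lower and 4 higher in ΔES27Lb, beside 5.85% of all genes (2.28% lower and 3.56% higher), and the 5 with the smallest p were snR38, snR54, snR24, snR18 and snR59, all box C/D snoRNAs encoded in introns.

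By the R64 annotation snR18 guides methylation at A649 and C650 of the large subunit rRNA, snR24 at C1437, C1449 and C1450, snR38 at G2815, and both snR39 and snR59 at A807, while snR54 guides A974 of the small subunit rRNA. All 8 intron-encoded snoRNAs had a log2 difference below 0, and the 6 of the box C/D class had a median of -2.12, against 0.08 for the 51 members outside introns and -0.07 for the 23 box C/D members outside introns. snR24, which guides methylation of the large subunit rRNA, was at 12.99, 4.24 and 2.74 CPM in wildtype and at 1.82, 1.90 and 0.89 CPM in ΔES27Lb. The strains did not overlap, and the log2 difference was -2.09 ± 0.63 (SE). snR18, with the same kind of target, was at 16.7, 4.60 and 2.96 CPM in wildtype and at 1.41, 2.69 and 2.75 CPM in ΔES27Lb, a difference of -1.82 ± 0.57 (SE). Again the strains were separate, but by a narrow margin. snR59 was at 3.51, 3.36 and 1.41 CPM in wildtype and at 0.87, 0.69 and 0.22 CPM in ΔES27Lb, a difference of -2.15 ± 0.72 (SE). These were the 3 of the 59 members for which every ΔES27Lb total library was below every wildtype total library, beside 3.02% of all genes tested.

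snR54, the only guide for the small subunit rRNA in the group, was at 12.99, 2.90 and 1.23 CPM in wildtype and at 1.41, 0.74 and 0.15 CPM in ΔES27Lb, a difference of -2.82 ± 0.83 (SE). snR38 was at 8.42, 4.24 and 0.51 CPM in wildtype and at 0.46, 0.65 and 0.15 CPM in ΔES27Lb, a difference of -3.30 ± 0.88 (SE). snR39 was at 12.04, 10.2 and 4.08 CPM in wildtype and at 6.06, 5.79 and 2.75 CPM in ΔES27Lb, a difference of -0.84 ± 0.43 (SE). For these 3 the lowest wildtype library lay within the range of ΔES27Lb. The adjusted p was 0.747 for each of the 6 by edgeR, and of the settings tried DESeq2 with the block alone put 2 of them past the threshold (snR54 at adjusted p = 0.0042 and snR38 at 0.0068), beside 0.188% of genes.

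Culture 1 of wildtype was the highest of the 6 total libraries for each of the 6. Without it all 6 remained below 0, with a median of -1.28. In that fit 2 of them were at an unadjusted p of 0.05 or less in place of 5. Over all genes 94 of 6066 were at that level, in place of 351 of 6003. In the other settings tried for this comparison the median of the group was between -2.46 and -1.33, the latter over the 2 members with at least 10 counts in every library. Culture 1 of wildtype was high for members in general and more so for this group. Its level in total mRNA was set against the mean log level of cultures 2 and 3. It was more than 2-fold above for 20 of the 59 members (33.9%), beside 8.60% of all genes. For the 6 intron-encoded box C/D members this held for 4, with a median log2 excess of 2.04 beside 0.67 for all members. The part of this culture in the strain difference was not tested beyond leaving it out.

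**Figure D4:**
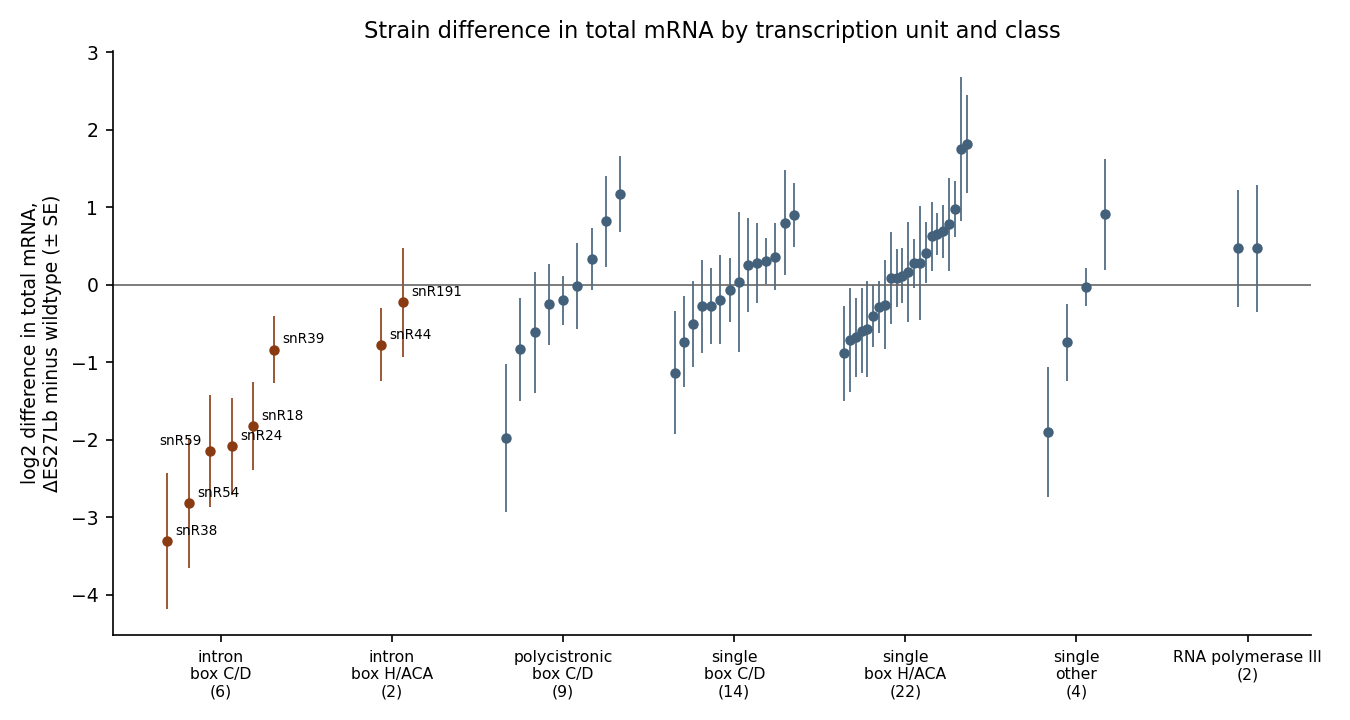
Log2 difference in total mRNA (ΔES27Lb minus wildtype, points, with SE as bars) of the 59 members tested, by transcription unit and class, with the number of members in parentheses. The 6 intron-encoded box C/D snoRNAs lie between -3.30 and -0.84, while the members of every other group with more than 2 members fall on both sides of 0.

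The host mRNAs had smaller differences. The 8 host genes had a median log2 difference of 0.12 in total mRNA, from -0.34 for NOG2 to 0.52 for RPL7A, with 0 at an unadjusted p of 0.05 or less. Per 1000 CPM of ASC1, snR24 was at 6.63, 1.93 and 2.09 in wildtype and at 1.19, 0.85 and 0.35 in ΔES27Lb. Relative to their hosts, snR18, snR24, snR38, snR54 and snR59 were lower in every ΔES27Lb total library than in any wildtype total library, and snR39 overlapped. The group was singled out by its strain difference in these same total libraries. The ratios to the hosts are therefore no separate support for that difference, and no share over all genes can be set beside them. The counts do not separate reads of the snoRNA from reads of the surrounding intron or unspliced host transcript. The intron-encoded box H/ACA RNAs overlapped between the strains. snR44, within RPS22B, was at 32.7, 16.6 and 8.74 CPM in wildtype and at 11.1, 11.9 and 10.9 CPM in ΔES27Lb, and snR191, within NOG2, was at 3.57, 0.57 and 0.54 CPM and at 1.37, 1.16 and 1.41 CPM. Their log2 differences were -0.78 ± 0.47 (SE) and -0.23 ± 0.70 (SE), and that of snR191 was 1.20 without culture 1 of wildtype.

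**Figure D5:**
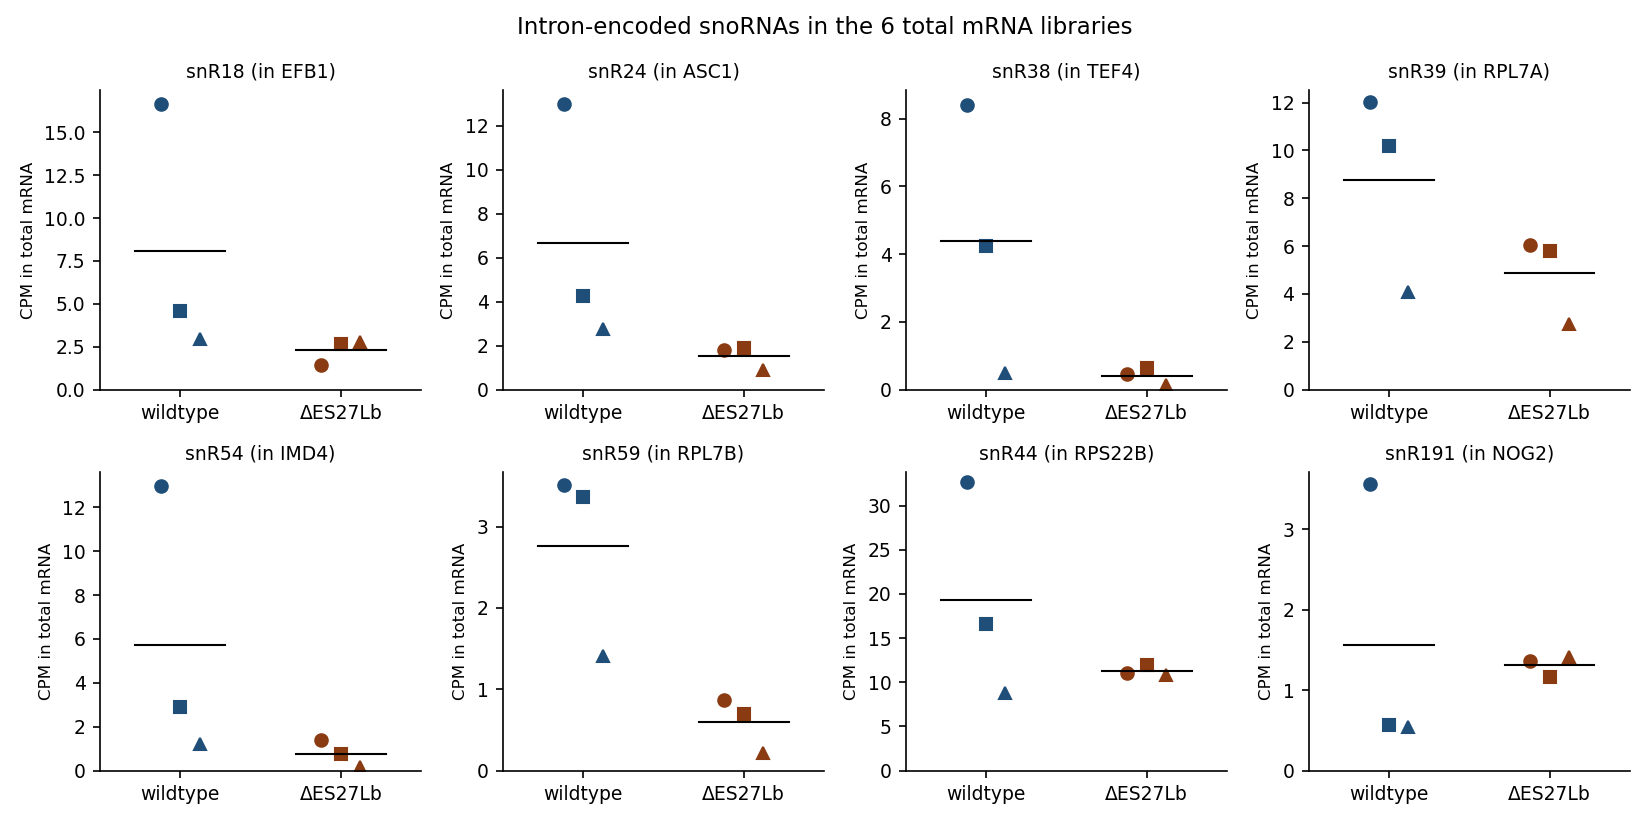
CPM in total mRNA (linear axis from 0) of the 8 intron-encoded snoRNAs in the 3 wildtype and 3 ΔES27Lb libraries, with circles, squares and triangles for cultures 1, 2 and 3 and black bars for means. Culture 1 of wildtype is the highest library in every panel, and the strains do not overlap for snR18, snR24 and snR59.

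Between pools, the intron-encoded snoRNAs were lower in polysomal mRNA while 6 of the 8 host mRNAs had a wildtype log2 P/T above 0. The 6 box C/D members had log2 P/T of -5.62 to -2.36 in wildtype, with a median of -3.20, and all 6 fell with the block, beside 15.6% of all genes. Without culture 1 of wildtype the median was -2.58. In ΔES27Lb their median was -1.77 and 1 of them fell with the block, beside 4.08% of all genes. The group was singled out by its strain difference in total mRNA, and both P/T ratios use those total libraries. The low wildtype values and the higher ΔES27Lb values are therefore no separate support for that difference. The host mRNAs had median log2 P/T of 0.80 in wildtype and 0.45 in ΔES27Lb, and 5 of 8 rose in wildtype with the block, beside 16.9% of all genes (EFB1, ASC1, RPL7A, RPL7B and RPS22B). snR54 was at 0.07, 0.14 and 0.12 CPM in wildtype polysomal mRNA against the total levels above, which gave log2 P/T of -5.62 ± 1.06 (SE) and adjusted p = 0.0116 by edgeR with the block (0.0619 without it). This value rested on culture 1 of wildtype, without which it was -3.86 ± 0.99 (SE) and LSR1, at -4.87, was lower. In ΔES27Lb polysomal mRNA it was at 0.16, 0.07 and 0.29 CPM.

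Of the 4 members at an unadjusted p of 0.05 or less that were higher in ΔES27Lb total mRNA, snR85, snR83 and snR33 were box H/ACA guides and snR76 was a box C/D guide. snR85 was at 0.11, 0.36 and 0.29 CPM in wildtype and at 0.73, 0.56 and 1.56 CPM in ΔES27Lb, a log2 difference of 1.82 ± 0.63 (SE). snR83, a guide for the small subunit rRNA, was at 4.63, 6.57 and 4.87 CPM in wildtype and at 9.66, 7.09 and 14.9 CPM in ΔES27Lb, a difference of 0.98 ± 0.36 (SE). Both were separate between strains, as were snR76 (1.17 ± 0.49 SE) and snR70 (0.33 ± 0.40 SE), box C/D guides from polycistronic precursors, which made 4 of 59 members beside 5.05% of all genes tested. The adjusted p was 0.747 or above for each of the 4 by edgeR.

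In polysomal mRNA 0 members and 0 genes passed the adjusted threshold by edgeR (percent called 0.0), and 0 members were at an unadjusted p of 0.05 or less beside 1.22% of genes. DESeq2 also called 0 members, beside 0.0578% of genes. The median log2 difference was -0.05, and the 3 smallest p-values belonged to LSR1 (1.11 ± 0.59 SE), snR83 (0.65 ± 0.38 SE) and SCR1 (1.41 ± 0.86 SE). SCR1 rested on culture 3 of ΔES27Lb, without which the difference was -0.14. Every ΔES27Lb library was above every wildtype library for snR63, a box C/D guide, and snR83, which is 2 of 59 members beside 3.02% of genes tested.

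The mRNAs of the proteins that bind or process these RNAs had median log2 P/T between -0.41 and 0.62 by list in wildtype. Without the block 0 of the 86 protein-coding genes on these lists passed the adjusted threshold in either strain. With the block, which put 16.9% of all genes higher and 15.6% lower in wildtype, 9 of 14 Sm and Lsm genes rose in wildtype, with a median log2 P/T of 0.62 over the list, among them SME1 (0.78 ± 0.28 SE, adjusted p = 0.0276, edgeR) and SMX3 (1.25 ± 0.45 SE, adjusted p = 0.0186, edgeR). Of 19 snRNP proteins 6 fell and 2 rose in wildtype, including PRP8, the core spliceosome scaffold (-1.03 ± 0.26 SE, adjusted p = 0.0116, edgeR). Among the core snoRNP proteins SNU13 of the box C/D particle (0.84 ± 0.35 SE) and NHP2 and GAR1 of the box H/ACA particle (0.83 ± 0.43 and 0.62 ± 0.47 SE) rose with the block in wildtype. The log2 values and SE given for these protein genes are from the fit without the block. Of the 15 genes for 3′ end formation and nuclear decay of noncoding RNA, SEN1, the helicase of the Nrd1 termination complex, was the 1 that fell, a share below that of all genes (-0.82 ± 0.24 SE, adjusted p = 0.0116, edgeR with the block). In ΔES27Lb, where the block put 2.88% of all genes higher and 4.08% lower, 1 gene of the lists rose (SEC65 of the signal recognition particle) and 3 fell (PRP8, BRR2 and SEN1).

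Transfer RNAs and mitochondrial rRNA were also lower in polysomal mRNA on average. The 35 tRNA genes tested had median log2 P/T of -1.28 in wildtype and -2.08 in ΔES27Lb. The mitochondrial 21S rRNA was at 94.6, 55.4 and 80.3 CPM in wildtype total mRNA and at 4.45, 3.14 and 1.06 CPM in polysomal mRNA, and in ΔES27Lb it was at 5.70, 56.003 and 77.9 CPM and at 7.68, 1.55 and 3.46 CPM. The rDNA feature RDN37-1 was at 97.4, 57.1 and 92.0 CPM in wildtype total mRNA but at 0.957, 9.31 and 6.10 CPM in ΔES27Lb total mRNA. Of the 6 total libraries, culture 1 of ΔES27Lb was the lowest for RDN37-1, the mitochondrial 21S rRNA, LSR1 and SCR1, and its log2 P/T was the highest of the 6 cultures for LSR1 (-1.33) and SCR1 (0.64).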

How the data were processed

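Total and polysomal mRNA were sequenced in 3 replicates of wildtype and 3 of ΔES27Lb. The authors enriched the RNA with oligo-dT beads, made stranded libraries, aligned reads to the BY4742 genome with HISAT2 and deposited raw read counts per feature from featureCounts. Versions, the annotation and the strand and multiple-mapping settings are not given in the sources used here, so reads of overlapping features and near-identical genes may have been lost or shared. Capture by poly(A) means that a value reflects the retained copies.

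From these counts edgeR 4.0.16 (R 4.3.3, limma 3.58.1) fitted quasi-likelihood models to all 12 libraries with 4 condition means, TMM factors (0.746 to 1.29) and filterByExpr, which left 6003 of 7126 genes. Standard errors are the log2 difference over the root of F. Log2 differences with an SE are from the fit without the block, even beside p-values with the block. The exceptions are the block values given for snR19, SCR1 and RPR1. P-values were adjusted over all genes tested (Benjamini-Hochberg, threshold 0.05). Single-library CPM carry no pseudocount, and log2 ratios of 1 culture used a prior count of 0.5. Library totals of 15050764 to 21532842 counts put 3 counts at 0.139 to 0.199 CPM. No replicate pair agreed within sampling noise. The scripts were tested on simulated counts. DESeq2 1.42.0, other scalings, filters and samples, and a block for culture were alternatives.

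The labels give the same replicate number to the total and polysomal library of a culture. Deviations from the condition means correlated at r = 0.405, 0.677 and 0.899 in the wildtype cultures and at 0.505, 0.203 and 0.725 in the ΔES27Lb cultures over 5152 genes, so the numbers were taken to pair the pools. Between strains the total libraries gave r = 0.191, 0.395 and 0.435 and were also taken as paired, whereas the polysomal libraries gave -0.107, 0.551 and 0.300 and were not. The main test fitted no block in any comparison, so it did not use these pairings. Correlations between libraries with different numbers were not computed. As an alternative, the block by replicate number was fitted between strains in both pools all the same.

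The members, lists, classes and alternatives were chosen with earlier results of these data known. Named with values by library were the RNAs with known single roles, the 5 highest in total mRNA, those called and, where none was called, the 3 smallest p-values; the remaining intron-encoded snoRNAs, snR31, snR70, snR76 and snR83 were singled out after their values were seen. Genes named from the lists of proteins had the smallest p-values of their list, apart from BRR2, which was named to complete a count. Sequences were read from RefSeq R64, to which all 86 members matched.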

Additional observations from a re-analysis of the deposited data

How the results depend on the processing

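In wildtype 3 members were called lower in polysomal mRNA by edgeR. The count was 43 with DESeq2, 17 with library totals in place of TMM, 1 (LSR1) with the wildtype libraries alone, 45 with the replicate block, 51 with DESeq2 and the block, 49 at an unadjusted p of 0.05, and 0 to 3 when 1 culture was left out. In ΔES27Lb 0 were called, against 21, 8, 29, 38 and 44 under DESeq2, library totals, the block, DESeq2 with the block and the unadjusted threshold, and 0 to 5 when 1 culture was left out (5 without culture 3 of wildtype). Over all 6003 genes edgeR called 7 in wildtype and 0 in ΔES27Lb, in either direction. These numbers were 46 and 10 with library totals and 1950 and 418 with the block. When 1 culture was left out without the block, they were 0 to 5 in wildtype and 0 to 7 in ΔES27Lb (7 of 6042 without culture 3 of wildtype). With the wildtype libraries alone 3 of 5879 genes were called. DESeq2 called 749 and 77 of 6917 genes, and 2171 and 1098 with the block. The block without 1 culture, chosen after seeing the data, gave 27, 28, 33, 39, 50 and 43 in wildtype and 40, 8, 8, 1, 0 and 0 in ΔES27Lb, leaving out wildtype cultures 1 to 3 and then ΔES27Lb cultures 1 to 3. Over all genes these fits called 872, 1441, 948, 1631, 1971 and 1553 in wildtype and 1706, 22, 15, 2, 0 and 0 in ΔES27Lb. The cause of these differences was not tested. The ΔES27Lb median log2 P/T moved from -1.88 to -2.16 with library totals, -1.62 with at least 10 counts in every library and -1.77 with DESeq2 and the block. Library totals shifted the median of all genes to -0.47 in wildtype and -0.34 in ΔES27Lb, and raised the ratio of summed levels to 4.93 and 4.14. At an unadjusted p of 0.05 the interaction had 4 members and the total mRNA comparison 10, beside 46 and 351 of 6003 genes. With DESeq2 and the block the total mRNA comparison had 8 members, beside 355 of 6900 genes. At the adjusted threshold the total mRNA comparison had 0 members by edgeR and 2 with DESeq2 and the block. In edgeR the block changed no call between strains within a pool. The median interaction was -0.09 without culture 1 of wildtype and up to 0.50 without culture 3. Signs turned for snR19 in ΔES27Lb P/T (-1.20 to 0.02 across left-out cultures, 0.02 without culture 3 of ΔES27Lb), for snR191 in total mRNA (0.26 with the block, 0.30 with DESeq2 and the block, and -0.65 to 1.20 across left-out cultures) and for SCR1 in polysomal mRNA (-0.14 to 1.90 across left-out cultures). Of the other alternatives for named members, 485 kept direction and side of the threshold, while 71 moved past it and 15 fell short of it. Depth limits the 24 members with counts that failed the filter.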
